A study of Mus musculus with 12 samples.

Results

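The expression of 9 liver genes of aromatic and sulfur amino acid breakdown was followed across knockdown of G0s2 and of Rgs16. They were chosen by name: Hpd, Tdo2, Hal, Hgd, Fah, Gnmt, Mat1a, Bhmt and Cth, which are 9 of the 55536 genes measured. The rule uses their names, but the members and the lists used below were chosen with earlier results of these data known. Counts of members or list genes set beside all genes therefore describe them and do not test the choice. The shG0s2 livers carried a short hairpin RNA against G0s2, an inhibitor of triglyceride breakdown in lipid droplets, and the shRgs16 livers carried a hairpin against Rgs16, a regulator of G protein signalling. The shLacZ livers, which were the controls, carried a hairpin against the bacterial gene lacZ. Each group had 4 samples, 12 in all. All were liver samples of wild-type mice, C57BL/6J in the growth protocol and C57BL/6 in the strain label, 8 weeks old. Every mouse had received 0.1 OD of adenovirus by the tail vein, so the controls carry the virus too, and livers were taken after 12 days at zeitgeber time 12, following 6 h without food in the daytime. In bulk liver RNA, fewer cells of a type and less RNA per cell cannot be told apart.

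The liver is the main site at which surplus phenylalanine, tyrosine, tryptophan, histidine and methionine are degraded. Tdo2 opens the tryptophan ring, Hal removes the amino group of histidine, and Hpd, Hgd and Fah act in turn between the keto acid of tyrosine and fumarate. In the methionine cycle, Mat1a makes S-adenosylmethionine, Gnmt spends its methyl group on glycine, Bhmt returns homocysteine to methionine with betaine, and Cth splits cystathionine to yield cysteine. Many of these enzymes mark differentiated hepatocytes and are known to respond to feeding and hormones.

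Total estimated counts were 18458266 to 26031061 per sample in shG0s2 livers, 24855361 to 27170443 in shRgs16 livers and 25636504 to 26472233 in shLacZ livers. The lowest was shG0s2 replicate 2. G0s2 itself had 24.6 to 49.3 CPM (counts relative to library size, scaled by TMM) in shG0s2 livers and 66.6 to 87.4 CPM in shLacZ livers, a log2 fold change of −0.98 ± 0.198 (SE; edgeR adjusted p = 0.00301). Scaled by library size alone this became −0.48, and in limma on log2(TPM + 1) −0.30, neither past the threshold. Rgs16 had 14.4 to 37.4 CPM in shRgs16 livers and 105 to 212 CPM in shLacZ livers (log2 fold change −2.51 ± 0.378, SE; edgeR adjusted p = 0.00172). Rgs16 was also lower in shG0s2 livers, at 43.9 to 71.3 CPM (log2 fold change −1.32 ± 0.244 against shLacZ, SE; edgeR adjusted p = 0.00236), whereas G0s2 had 57.8 to 88.3 CPM in shRgs16 livers and did not pass the test against shLacZ. The share of counts from major urinary protein (Mup) genes was 1.15% ± 0.310 in shG0s2 livers, 2.27% ± 0.893 in shRgs16 livers and 10.5% ± 0.642 in shLacZ livers (SD, n = 4 each). Nothing in the labels says that the 4 replicates of a group were different animals, and the p-values then reflect spread that may be technical.

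The scaling shifts the fold changes given here, and some directions turn with it. With TMM the median log2 fold change of all genes tested was 0.01 in each of the 3 comparisons. With library size alone it was 0.50 for shG0s2 against shLacZ, 0.31 for shRgs16 against shLacZ and 0.21 for shG0s2 against shRgs16. With limma on log2(TPM + 1) the same medians were 0.54, 0.32 and 0.22. Changes are therefore relative to the bulk of genes.

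The stretch before the start of transcription is shown for the 3 members with the largest falls in shG0s2 livers that RefSeq's promoter table holds, and for Hgd, the member with the smallest called fall. Of the 9 members, 7 were matched, all but Mat1a and Cth. Each line holds the 250 bases before the RefSeq start on GRCm38.p6, read 5′ to 3′ on the gene's strand, with searched motifs in capitals.

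Hpd, chr5:123182724-123182973, minus strand: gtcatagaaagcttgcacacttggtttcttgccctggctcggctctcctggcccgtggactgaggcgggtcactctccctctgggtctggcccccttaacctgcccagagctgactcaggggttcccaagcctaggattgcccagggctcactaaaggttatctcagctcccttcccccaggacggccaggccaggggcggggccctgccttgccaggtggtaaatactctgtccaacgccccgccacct

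Bhmt, chr13:93637759-93638008, minus strand: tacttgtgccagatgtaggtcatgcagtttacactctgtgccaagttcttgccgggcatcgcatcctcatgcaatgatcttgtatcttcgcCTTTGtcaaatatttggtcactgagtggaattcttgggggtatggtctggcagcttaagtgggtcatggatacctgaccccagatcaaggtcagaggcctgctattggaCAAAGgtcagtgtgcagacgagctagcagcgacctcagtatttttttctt

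Hal, chr10:93488518-93488767, plus strand: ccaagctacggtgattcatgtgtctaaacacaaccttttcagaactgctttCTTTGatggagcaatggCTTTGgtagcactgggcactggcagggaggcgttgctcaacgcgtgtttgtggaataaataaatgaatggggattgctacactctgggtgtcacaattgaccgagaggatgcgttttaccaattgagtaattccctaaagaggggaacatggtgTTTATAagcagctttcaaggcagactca

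Hgd, chr16:37579903-37580152, plus strand: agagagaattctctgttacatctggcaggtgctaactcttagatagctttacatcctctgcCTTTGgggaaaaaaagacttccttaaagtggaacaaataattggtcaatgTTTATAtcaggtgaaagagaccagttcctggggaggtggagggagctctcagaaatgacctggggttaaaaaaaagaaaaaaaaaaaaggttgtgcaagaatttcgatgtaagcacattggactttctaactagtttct

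The search ran over 250 bases before and 50 after the start, on both strands, in 32851 promoters. CAAAG, the core of the site read by the hepatocyte factor HNF4, was found in 4 of 7 members and in 53.9% of all promoters. TATAAA was found in 3 of 7 members and 13.6% of all, and only Hal had it close to the start, at bases −28 to −23, as its reverse complement in the capitals TTTATA. The FOXA form TGTTTGC was in 1 member, Tdo2, and in 5.07% of all, and the other form, TGTTTAC, was in 0 members and 3.65% of all. None of the 7 windows held GTTAAT, the short HNF1 motif (7.10% of all promoters), the full HNF1 motif with up to 2 mismatches (1.36%), TGTTCT, the short glucocorticoid receptor motif (19.0%), CACGTG, the E-box (7.15%) or TTGCGCAA, the C/EBP palindrome (0.183%). The looser C/EBP form TTNCNNAA, left in lower case above, was in 2 members and 40.7% of all. The Hpd and Fah windows held none of these motifs, so no searched motif was common to all 7 windows. The Bhmt window held CAAAG on either strand, at bases −159 to −155 and −50 to −46. In the GENCODE M21 annotation Bhmt spans chr13:93616675-93637961 on the minus strand. Most of its printed stretch, with both CAAAG matches, lies inside that span, so the 2 annotations place its start differently. The matches describe letters, not binding.

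Levels of different genes were compared in TPM, which is per transcript length. Bhmt led in every group by its mean, at 1290 ± 141 TPM in shG0s2 livers, 2112 ± 732 TPM in shRgs16 livers and 2271 ± 681 TPM in shLacZ livers (SD, n = 4 each). Hal was the lowest in every group, at 41.9 ± 4.33 TPM in shG0s2 livers, 79.9 ± 10.7 TPM in shRgs16 livers and 72.0 ± 10.3 TPM in shLacZ livers. In shLacZ livers the order was Bhmt, Mat1a, Gnmt, Tdo2, Hpd, Fah, Hgd, Cth and Hal, with overlapping ranges between each neighbouring pair from Bhmt down to Hpd and between Hgd and Cth. In shRgs16 livers Cth moved up to the sixth place, above Hgd and Fah, and its range overlapped neither Hpd above it nor Hgd below it. In shG0s2 livers Tdo2 stood above Gnmt and Hgd above Fah, with overlapping ranges between Mat1a, Tdo2 and Gnmt and between Fah and Cth. Summed over the 9 genes, TPM reached 4719 to 5331 in shG0s2 livers, 7478 to 9858 in shRgs16 livers and 6979 to 9645 in shLacZ livers, so the shG0s2 range lay below both others and those overlapped.

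**Figure D1:**
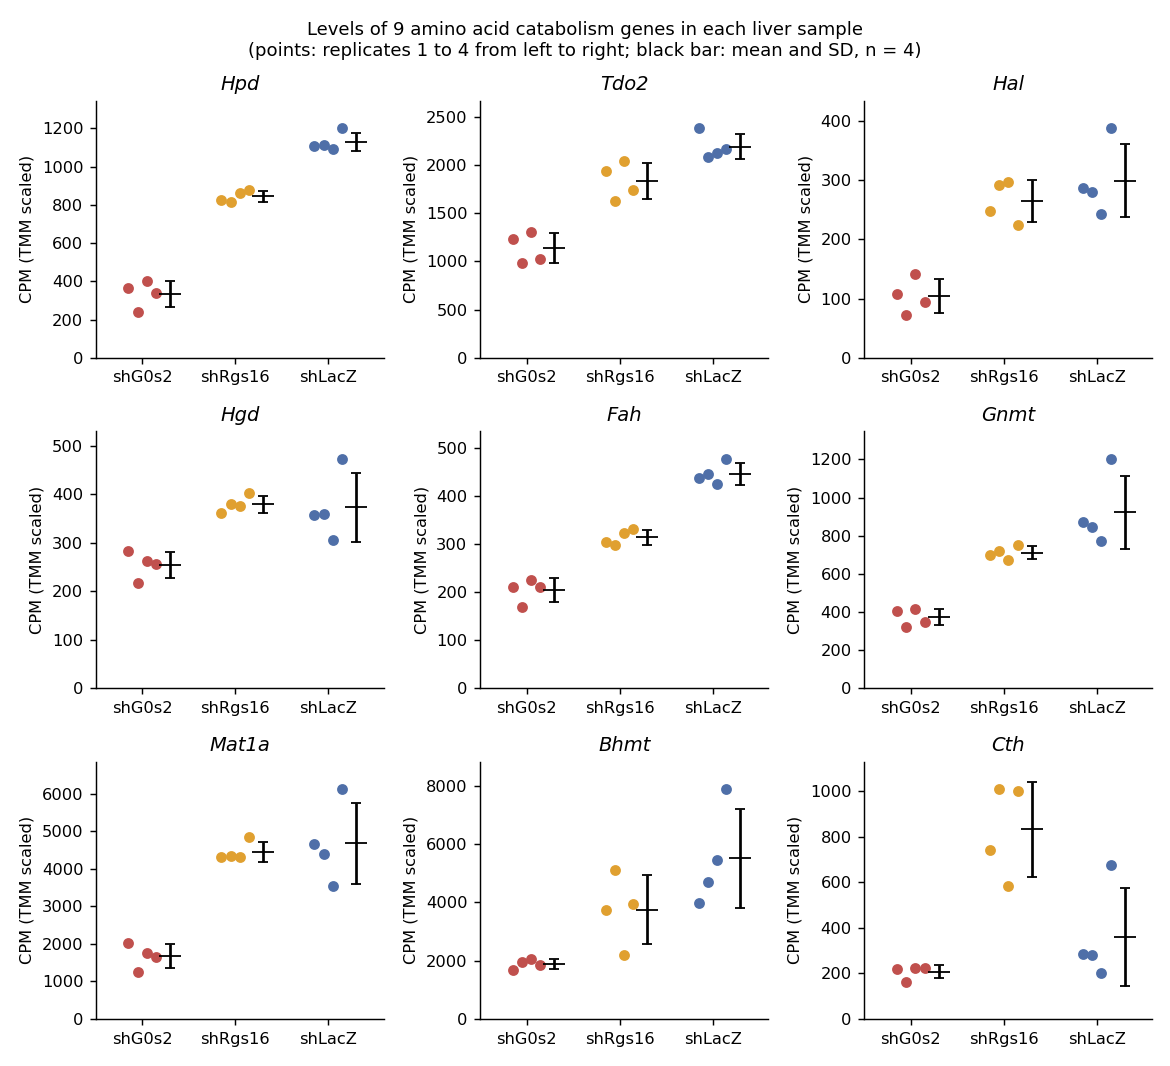
TMM-scaled CPM (vertical axes, from 0, each gene on its own scale) of the 9 genes in every sample, grouped as shG0s2, shRgs16 and shLacZ; points are replicates 1 to 4 and black bars give mean and SD (n = 4). The shG0s2 points lie below all shLacZ points for every gene but Cth, and the shRgs16 points of Cth reach 1009 CPM.

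In shG0s2 livers 8 of the 9 members fell against shLacZ and 0 rose, with Cth not past the threshold. The background is large: 29.2% of all genes tested were called lower and 31.3% higher. The median log2 fold change of the members was −1.30, beside 0.01 for all genes, and single members ranged from −1.74 to −0.54. The CPM ranges of the 8 called genes did not overlap between shG0s2 and shLacZ livers, with all 8 below. Of all genes tested, 27.4% lay wholly below in the same way and 28.2% wholly above. In TPM the ranges of 6 members lay wholly below, as did those of 3.71% of all genes, while 68.6% lay wholly above. When scaled by library size alone, or in limma on log2(TPM + 1), 7 members remained lower, all but Hgd and Cth. The limma fit called 722 of 15592 genes lower and 11588 higher.

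In tyrosine breakdown, Hpd, the dioxygenase that makes homogentisate, had the largest fall of the 9. It had 366, 241, 399 and 336 CPM in shG0s2 livers and 1105, 1115, 1092 and 1199.8 CPM in shLacZ livers. All 4 shG0s2 samples lay far below the lowest control, and the log2 fold change was −1.74 ± 0.134 (SE; edgeR adjusted p = 7.9e-07). Among all genes tested, 1.82% had a lower log2 fold change than Hpd. Fah, the enzyme that ends the pathway and is defective in hereditary tyrosinemia, had 211, 169, 225 and 210.1 CPM in shG0s2 livers and 437, 445, 424 and 477 CPM in shLacZ livers. The groups were well apart, with a log2 fold change of −1.12 ± 0.0896 (SE; edgeR adjusted p = 7.3e-07). Hgd, the enzyme between these, had 283, 217, 261 and 256 CPM in shG0s2 livers and 356, 359, 305 and 473 CPM in shLacZ livers. Its ranges were separate by a small gap and its log2 fold change was −0.54 ± 0.130 (SE; edgeR adjusted p = 0.00408), but it was −0.05 with library size alone and 0.16 in limma on TPM, both short of the threshold. In TPM, Hgd had 277 ± 19.9 in shG0s2 livers and 249 ± 39.3 in shLacZ livers (SD, n = 4 each), so its fall holds only relative to the bulk of genes.

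Tdo2, the tryptophan dioxygenase, had 1235, 984, 1304 and 1028 CPM in shG0s2 livers and 2381, 2087, 2124 and 2167 CPM in shLacZ livers. Every shG0s2 value was below every control value (log2 fold change −0.93 ± 0.107, SE; edgeR adjusted p = 1.2e-05). On the TPM scale Tdo2 had 860 ± 53.0 in shG0s2 livers and 1020 ± 106 in shLacZ livers (SD, n = 4 each) and the ranges overlapped. Hal, histidine ammonia-lyase, had 107, 73.0, 141 and 94.0 CPM in shG0s2 livers and 287, 281, 243 and 388 CPM in shLacZ livers. The highest shG0s2 sample stayed below the lowest control, and the log2 fold change was −1.52 ± 0.227 (SE; edgeR adjusted p = 0.000634). Hal was the member with the fewest reads, from 1677 counts in shG0s2 replicate 2 to 8238 in shLacZ replicate 4.

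Mat1a, Gnmt and Bhmt of the methionine cycle fell as well. Mat1a, the S-adenosylmethionine synthetase of adult liver, had 2020.4, 1248, 1765 and 1642 CPM in shG0s2 livers and 4673, 4389, 3541 and 6120.1 CPM in shLacZ livers. Its log2 fold change was −1.48 ± 0.184 (SE; edgeR adjusted p = 4.0e-05), with no overlap of the groups. Gnmt, glycine N-methyltransferase, had 404, 324, 415 and 349 CPM in shG0s2 livers and 871, 846, 774 and 1203 CPM in shLacZ livers. The controls spread upward to replicate 4 and still lay wholly above the shG0s2 samples (log2 fold change −1.30 ± 0.140, SE; edgeR adjusted p = 1.3e-05). Bhmt, the betaine-dependent methyltransferase, had 1685, 1967, 2070.1 and 1835 CPM in shG0s2 livers and 3998, 4716, 5458 and 7884 CPM in shLacZ livers. The shG0s2 values were close together and the controls were not (log2 fold change −1.54 ± 0.188, SE; edgeR adjusted p = 3.5e-05). The estimated counts of Bhmt were not whole numbers, so its level depends partly on how reads were shared out. Bhmt has a close paralogue, Bhmt2, but which genes the reads were shared with was not tested.

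Cth, cystathionine gamma-lyase, was the exception in shG0s2 livers. It had 218, 163, 225 and 222 CPM in shG0s2 livers and 283, 279.5, 203 and 676 CPM in shLacZ livers. The ranges overlapped, because control replicate 3 lay among the shG0s2 values, and control replicate 4 stood far above the other controls. The log2 fold change was −0.79 ± 0.391 (SE; edgeR adjusted p = 0.125). Without control replicate 4 it was −0.28 (edgeR adjusted p = 0.126), with library size alone −0.28 and in limma on TPM 0.06, none past the threshold. In TPM Cth had 208 ± 22.7 in shG0s2 livers and 219 ± 123 in shLacZ livers (SD, n = 4 each).

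In shRgs16 livers 4 members fell against shLacZ with TMM scaling, namely Hpd, Tdo2, Fah and Gnmt, and 0 rose. The background was 24.5% of genes called lower and 24.6% called higher. In CPM the same 4 members lay wholly below the shLacZ range, as did 22.7% of all genes, with 22.2% wholly above. In TPM 0 members lay below and 2 lay above, Hgd and Cth, beside 4.25% of all genes below and 51.3% above. With TMM scaling, the members' median log2 fold change was −0.26, beside 0.01 for all genes. The 4 falls were small. Hpd had 823, 814, 861 and 877 CPM in shRgs16 livers and 1092 to 1199.8 CPM in the controls listed above, with a log2 fold change of −0.42 ± 0.0652 (SE; edgeR adjusted p = 0.000245). Fah had 303, 297, 323 and 330.4 CPM in shRgs16 livers and 424 to 477 CPM in shLacZ livers (log2 fold change −0.51 ± 0.0631, SE; edgeR adjusted p = 4.9e-05). Both genes were lower in each shRgs16 sample than in any control.

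Tdo2 had 1941, 1628, 2038 and 1741 CPM in shRgs16 livers and 2087 to 2381 CPM in shLacZ livers (log2 fold change −0.26 ± 0.0870, SE; edgeR adjusted p = 0.0283). Gnmt had 699, 721, 673 and 753 CPM in shRgs16 livers and 774 to 1203 CPM in shLacZ livers (log2 fold change −0.38 ± 0.122, SE; edgeR adjusted p = 0.0234). For both, the shRgs16 range ended just under the control range. These directions rested on the scaling: library size alone called 1 member lower, Fah, and limma on log2(TPM + 1) called 0 lower, with Tdo2 turning to 0.04 and 0.15 in these fits and Hpd and Gnmt to 0.02 and 0.08 in limma. Hpd at −0.12 and Gnmt at −0.07 with library size alone, and Fah at −0.07 in limma, were not past the threshold. In TPM, Hpd had 967 ± 22.4 in shRgs16 livers and 955 ± 33.4 in shLacZ livers (SD, n = 4 each). The calls of Tdo2 and Gnmt were also lost on leaving out single samples, with adjusted p of 0.0824 for Tdo2 without shRgs16 replicate 2, 0.0806 without shRgs16 replicate 4 and 0.0814 without shLacZ replicate 1. For Gnmt it was 0.0553 without shRgs16 replicate 1, 0.0518 without shRgs16 replicate 2 and 0.0596 without shRgs16 replicate 3.

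Hal, Hgd, Mat1a and Bhmt did not pass the test in shRgs16 livers. Their log2 fold changes against shLacZ were −0.18 for Hal, 0.02 for Hgd, −0.07 for Mat1a and −0.56 for Bhmt, with edgeR adjusted p of 0.349, 0.902, 0.693 and 0.157. Hal turned to 0.13 with library size alone and to 0.15 in limma on TPM, neither past the threshold. Hgd had 360.4, 379, 376 and 402 CPM in shRgs16 livers, inside the control range of 305 to 473 CPM. In TPM, Hgd had 322 to 354 in shRgs16 livers and 219 to 307 in shLacZ livers without overlap, and it was called higher with library size alone (0.33) and in limma on TPM (0.45). Mat1a had 4309, 4356, 4320.0 and 4853 CPM in shRgs16 livers, within the wide control range of 3541 to 6120.1 CPM, and it stood at 0.24 with library size alone, not past the threshold, and was called higher in limma on TPM at 0.38. Bhmt varied most among the shRgs16 samples, at 3751, 5110.2, 2205 and 3957 CPM, and only replicate 3 lay far under the lowest control.

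Of the members, Cth had the highest log2 fold change in shRgs16 livers against shLacZ. It had 741, 1009, 582 and 1003 CPM in shRgs16 livers and 283, 279.5, 203 and 676 CPM in shLacZ livers. The ranges overlapped through control replicate 4 alone, and in TPM they did not, with 472 to 875 in shRgs16 livers and 133 to 402 in shLacZ livers. The log2 fold change was 1.21 ± 0.423 (SE; edgeR adjusted p = 0.0527), just short of the threshold, and 95.1% of all genes had a lower one. Without shLacZ replicate 4 it was 1.70 (edgeR adjusted p = 0.00137), and it was past the threshold with library size alone (1.53) and in limma on TPM (1.76). The authors' deposited table gave Cth a log2 fold of 1.20 with an adjusted p of 0.0280, knockdown over shLacZ.

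**Figure D2:**
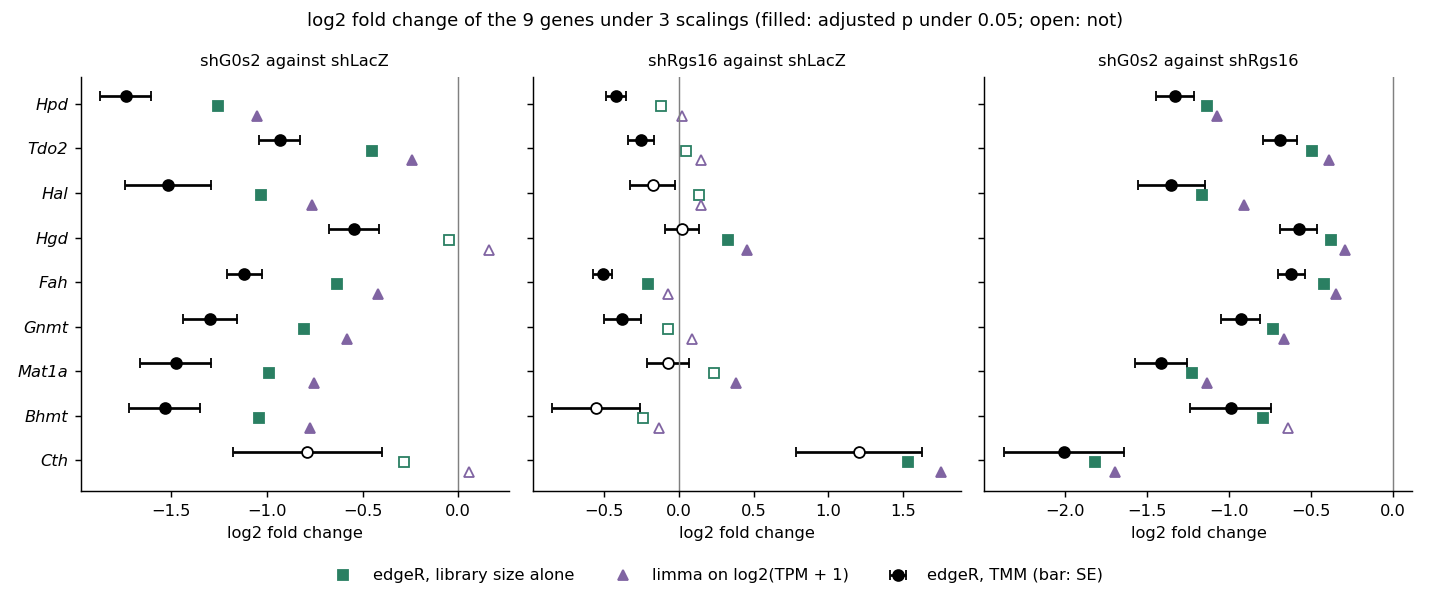
log2 fold change (horizontal axes) of the 9 genes in 3 comparisons, by edgeR with TMM (circles, bars SE), edgeR with library size alone (squares) and limma on log2(TPM + 1) (triangles); filled symbols have an adjusted p under 0.05. The symbols shift rightward from TMM to the other scalings, which moves Hgd to 0.16 in shG0s2 and Hpd to 0.02 in shRgs16 against shLacZ, while all 9 genes stay left of 0 in shG0s2 against shRgs16.

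Set directly against each other, shG0s2 livers had lower levels of all 9 members than shRgs16 livers, where 20.5% of all genes were called lower and 21.0% higher. The median log2 fold change of the members was −0.99, beside 0.01 for all genes. All 9 lay wholly below the shRgs16 range in CPM, as did 19.4% of all genes, with 20.4% wholly above. In TPM 8 lay wholly below, as did 6.67% of all genes, with 37.6% wholly above. Cth differed the most, at −2.01 ± 0.367 (SE; edgeR adjusted p = 0.00168), with 163 to 225 CPM in shG0s2 livers and 582 to 1009 CPM in shRgs16 livers. Among all genes, 0.812% had a lower value. Mat1a followed at −1.42 ± 0.159 (SE; edgeR adjusted p = 7.9e-06), then Hal at −1.35 ± 0.203 (adjusted p = 0.000335) and Hpd at −1.33 ± 0.116 (adjusted p = 5.8e-07). The smallest differences were those of Fah at −0.62 ± 0.0806 (SE; edgeR adjusted p = 2.1e-05) and Hgd at −0.58 ± 0.112 (adjusted p = 0.000836). Library size alone left 9 members lower, and limma on TPM left 8, without Bhmt (−0.64, limma adjusted p = 0.0695).

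Markers of liver cell types were set beside the members, and many but not all were called. Of all genes tested, 29.2% were called lower and 31.3% higher in shG0s2 livers, and 24.5% lower and 24.6% higher in shRgs16 livers. In TPM, 68.6% of all genes lay wholly above shLacZ in shG0s2 livers and 51.3% in shRgs16 livers. A higher summed TPM is therefore not particular to a cell type. The hepatocyte list (7 of its 8 genes were found in the files) had 6 lower and 0 higher in shG0s2 livers, and 3 lower and 1 higher in shRgs16 livers, yet its summed TPM was 36733 to 53483 in shG0s2 livers, 47839 to 52849 in shRgs16 livers and 32690 to 36774 in shLacZ livers. Most of that sum was Alb, at 30512 ± 5563 TPM in shG0s2 livers, 30426 ± 2292 TPM in shRgs16 livers and 17881 ± 1524 TPM in shLacZ livers (SD, n = 4 each). Apoa1 ran the other way in both knockdowns, at 4358 ± 905 TPM in shG0s2 livers and 4086 ± 372 TPM in shRgs16 livers. In shLacZ livers Apoa1 had 5464 ± 446 TPM. Apob differed between the knockdowns, with a mean TPM of 1055 in shG0s2, 377 in shRgs16 and 902 in shLacZ livers. Fgb differed in reverse, with means of 869, 1646 and 1090 TPM in the same order. Ttr, Serpinc1 and Ahsg had a higher mean TPM in both knockdowns than in shLacZ livers, Ttr only slightly. Stellate cell markers had 6 of 6 higher in shG0s2 livers and 3 of 6 in shRgs16 livers, with summed TPM of 267 to 375 in shG0s2 livers, 118 to 148 in shRgs16 livers and 74.5 to 94.8 in shLacZ livers. Macrophage markers had 5 of 6 higher in shG0s2 livers and 4 of 5 tested in shRgs16 livers, and their summed TPM was 650.5 to 707 in shG0s2 livers, 464 to 579.9 in shRgs16 livers and 264 to 304 in shLacZ livers. T and NK cell markers had 5 of 5 higher in both, with 40.6 to 50.1 TPM in shG0s2 livers, 29.2 to 44.2 TPM in shRgs16 livers and 6.47 to 16.9 TPM in shLacZ livers. Cholangiocyte markers had 2 of 5 higher in both knockdowns, at 244 to 347 TPM in shG0s2 livers, 138 to 236 TPM in shRgs16 livers and 124 to 230.4 TPM in shLacZ livers. Endothelial markers had 2 of 6 lower in shG0s2 livers and 1 of 6 higher in shRgs16 livers, at 149 to 181 TPM in shG0s2 livers, 128 to 177 TPM in shRgs16 livers and 101 to 112 TPM in shLacZ livers. Of these markers, 0 were at 0 in all 12 samples. The part of these markers in the members' levels was not tested.

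The sample-by-sample view sets each gene against its own control mean on the log2 CPM scale. Every shG0s2 sample was below that mean for all 9 genes, from −2.22 for Hpd in replicate 2 to −0.38 for Hgd in replicate 1. In shRgs16 livers Cth was above it in 4 of 4 samples, at 0.85 to 1.64. Hpd, Tdo2, Fah, Gnmt and Bhmt were below it in 4 of 4, and Hal, Hgd and Mat1a lay on both sides. Among the controls, replicate 4 had the highest CPM of its group for 8 of 9 genes, all but Tdo2. The profiles of Fah and Gnmt were nearest each other over the 12 samples, with a root mean square difference of 0.177 in log2 CPM, and those of Hpd and Cth were farthest apart, at 1.27.

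**Figure D3:**
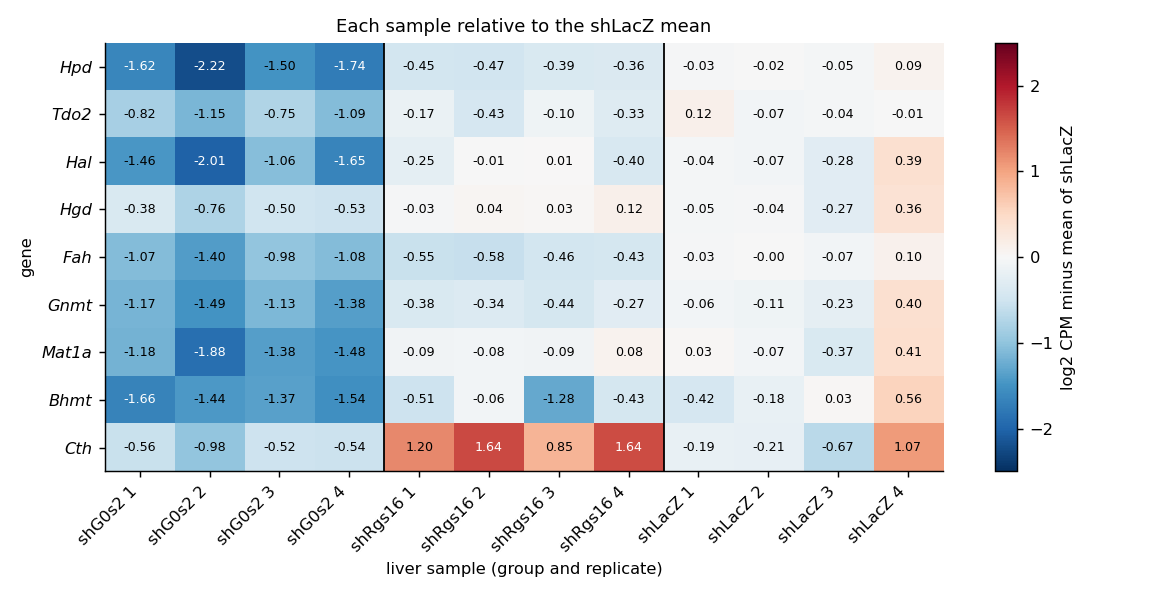
log2 CPM minus the shLacZ mean of the same gene (colour and printed value) for 9 genes in rows and 12 liver samples in columns, shG0s2 left, shRgs16 middle and shLacZ right. The shG0s2 columns are below 0 for each gene, and the Cth row is above 0 in every shRgs16 sample and in shLacZ replicate 4 (1.07).

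Because the 9 genes did not move in parallel, pairs from the same or adjoining routes were set against each other within each sample. The 4 pairs were chosen after the values were seen and are described without a test. The ratio of Cth to Bhmt, which lie on competing routes out of homocysteine, ran in TPM from 0.121 to 0.194 in shG0s2 livers, 0.291 to 0.398 in shRgs16 livers and 0.0562 to 0.126 in shLacZ livers. The shRgs16 ratios lay above all others. The ratio of Hgd to Hpd ran from 0.511 to 0.706 in shG0s2 livers, 0.340 to 0.360 in shRgs16 livers and 0.223 to 0.310 in shLacZ livers, with no overlap among the 3 groups. Like Cth to Bhmt, the remaining pairs overlapped between shG0s2 and shLacZ livers. Mat1a to Gnmt ran from 1.03 to 1.31 in shG0s2 livers, 1.57 to 1.68 in shRgs16 livers and 1.20 to 1.42 in shLacZ livers. Cth to Mat1a ran from 0.202 to 0.253 in shG0s2 livers, 0.256 to 0.436 in shRgs16 livers and 0.108 to 0.206 in shLacZ livers. A ratio within a sample does not depend on the scaling between samples.

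**Figure D4:**
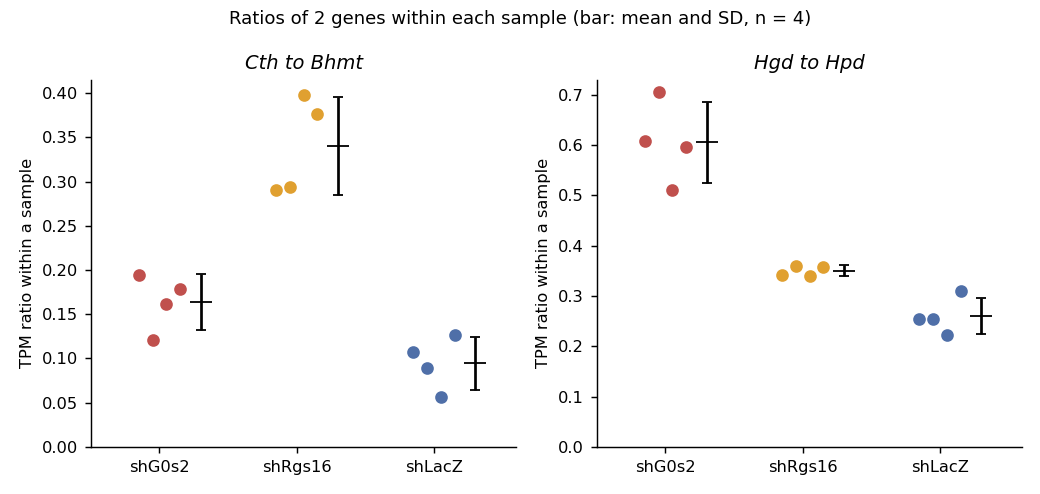
Ratio of 2 genes' TPM within each liver sample (vertical axes, from 0), Cth to Bhmt on the left and Hgd to Hpd on the right; points are replicates and bars give mean and SD (n = 4). Cth to Bhmt is highest in shRgs16 (0.291 to 0.398) and Hgd to Hpd is highest in shG0s2 (0.511 to 0.706).

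For each member the gene with the nearest profile was sought among 8547 genes with a mean of at least 10 CPM, by the root mean square difference of log2 CPM from the shLacZ mean over the 12 samples. Bhmt was nearest to its paralogue Bhmt2 (0.304) and Mat1a to Got1, the cytosolic aspartate aminotransferase (0.166). Fah had the closest match of all, Ndrg2 (0.0564). Tdo2 was nearest to Slc7a2, a transporter of cationic amino acids (0.0881), Hgd to Iah1 (0.0893), Gnmt to Cpn2 (0.131), Hpd to the carboxylesterase gene Ces2a (0.137) and Hal to Dpy19l3 (0.162). Cth had no close neighbour, the nearest being Rab11fip4 at 0.405.

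The other enzymes of these routes were read from 6 lists with 39 genes, all of which were tested. In shG0s2 livers 32 were called lower than in shLacZ and 4 higher, with a median log2 fold change of −0.80. Library size alone gave 24 lower and 9 higher, and limma on TPM gave 17 lower and 13 higher. In shRgs16 livers 21 were lower and 2 higher (median −0.22), against 16 lower and 14 higher with library size alone and 10 lower and 18 higher in limma on TPM. Between the knockdowns, 31 were lower in shG0s2 livers and 4 higher (median −0.46), with 17 lower and 6 higher in limma on TPM. Over all genes tested, the shares called were 29.2% lower and 31.3% higher in shG0s2 livers, 24.5% lower and 24.6% higher in shRgs16 livers, and 20.5% lower and 21.0% higher between the knockdowns. Of the 32 list genes called lower in shG0s2 livers, 8 had a higher mean TPM there than in shLacZ livers, and so had 4 of the 21 called lower in shRgs16 livers. The genes named from the lists are not among these in the comparisons for which they are named.

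Phenylalanine and tyrosine breakdown held 5 further genes, and 5 of 5 were lower in shG0s2 livers and 3 of 5 in shRgs16 livers (in limma on TPM 4 lower and 1 higher in shG0s2 livers, 0 lower and 2 higher in shRgs16 livers). Tat, the aminotransferase ahead of Hpd, fell by 1.51 ± 0.302 (SE; edgeR adjusted p = 0.00296) in shG0s2 livers and by 0.61 (adjusted p = 0.0441) in shRgs16 livers. Gstz1, the isomerase between Hgd and Fah, had the smallest p of the list in both, at −0.88 in shG0s2 livers and −0.51 in shRgs16 livers.

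The other genes of tryptophan breakdown had 7 of 8 lower and 0 higher in shG0s2 livers, and 5 lower and 1 higher in shRgs16 livers (in limma on TPM 4 lower and 2 higher in shG0s2 livers, 2 lower and 3 higher in shRgs16 livers). Aadat, a kynurenine aminotransferase, had the smallest p in both, at −1.80 ± 0.0714 (SE; edgeR adjusted p = 5.9e-09) in shG0s2 livers and −0.97 ± 0.0673 (SE; edgeR adjusted p = 1.2e-06) in shRgs16 livers. It had 56.4 ± 5.0 TPM in shG0s2 livers, 96.0 ± 10.7 TPM in shRgs16 livers and 139.9 ± 9.56 TPM in shLacZ livers (SD, n = 4 each). Acmsd, which diverts the pathway away from NAD synthesis, went the other way in shRgs16 livers, at 1.13 ± 0.205 (SE; edgeR adjusted p = 0.00231). Acmsd had 23.5 ± 5.87 TPM in shRgs16 livers and 8.36 ± 1.64 TPM in shLacZ livers (SD, n = 4 each). The 3 histidine genes after Hal were all lower in shG0s2 livers, and 2 of 3 in shRgs16 livers (in limma on TPM 1 lower and 0 higher in shG0s2 livers, 1 lower and 1 higher in shRgs16 livers). Ftcd, which passes the histidine carbon to folate, stood at −0.87 in shG0s2 livers and −0.67 in shRgs16 livers.

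The methionine cycle list was split in shG0s2 livers, with 4 of 8 genes lower and 4 higher (in limma on TPM 2 lower and 4 higher in shG0s2 livers, 2 lower and 4 higher in shRgs16 livers). Ahcy, which hydrolyses S-adenosylhomocysteine, fell by 1.89 ± 0.139 (SE; edgeR adjusted p = 4.3e-07) in shG0s2 livers and by 0.60 (adjusted p = 3.5e-05) in shRgs16 livers. Cbs, which makes the cystathionine that Cth splits, fell by 0.86 ± 0.231 (SE; edgeR adjusted p = 0.0132) in shG0s2 livers and stood at −0.15 (adjusted p = 0.596) in shRgs16 livers. Bhmt2 was lower in both, at −1.23 in shG0s2 livers and −0.57 in shRgs16 livers.

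Mat2a, Mat2b and Mtr were among the 4 higher genes in shG0s2 livers, and the list had 4 higher calls with library size alone and in limma on TPM. Mat2a, the methionine adenosyltransferase found outside adult hepatocytes and in growing liver cells, had 97.5 ± 14.8 TPM in shG0s2 livers and 37.8 ± 3.43 TPM in shLacZ livers (SD, n = 4 each), and rose by 0.72 ± 0.0987 (SE; edgeR adjusted p = 6.5e-05). Mat1a and Mat2a thus moved in opposite directions in shG0s2 livers. Mtr, which uses a folate methyl group for the other route from homocysteine to methionine, rose by 0.34. Mat2b, the regulatory partner of Mat2a, rose by 0.14 with an adjusted p of 0.0497. In shRgs16 livers Mtr rose by 0.56 and Ahcyl1 had the smallest p of the list, at −0.49.

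Methyl transfer and choline oxidation had 6 of 7 genes lower in shG0s2 livers and 4 of 7 in shRgs16 livers (in limma on TPM 3 lower and 4 higher in shG0s2 livers, 3 lower and 3 higher in shRgs16 livers). Dmgdh, which oxidises the dimethylglycine that Bhmt releases, had the smallest p in shG0s2 livers at −1.16, and Gamt, which makes creatine, in shRgs16 livers at −0.59. Cysteine and sulfur disposal had 7 of 8 lower in shG0s2 livers and 3 of 8 in shRgs16 livers (in limma on TPM 3 lower and 2 higher in shG0s2 livers, 2 lower and 5 higher in shRgs16 livers). Cdo1, the dioxygenase that starts the way from cysteine to taurine and sulfate, had the smallest p in both, at −1.35 ± 0.0771 (SE; edgeR adjusted p = 6.7e-08) in shG0s2 livers and −0.90 ± 0.0730 (SE; edgeR adjusted p = 3.0e-06) in shRgs16 livers.

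**Figure D5:**
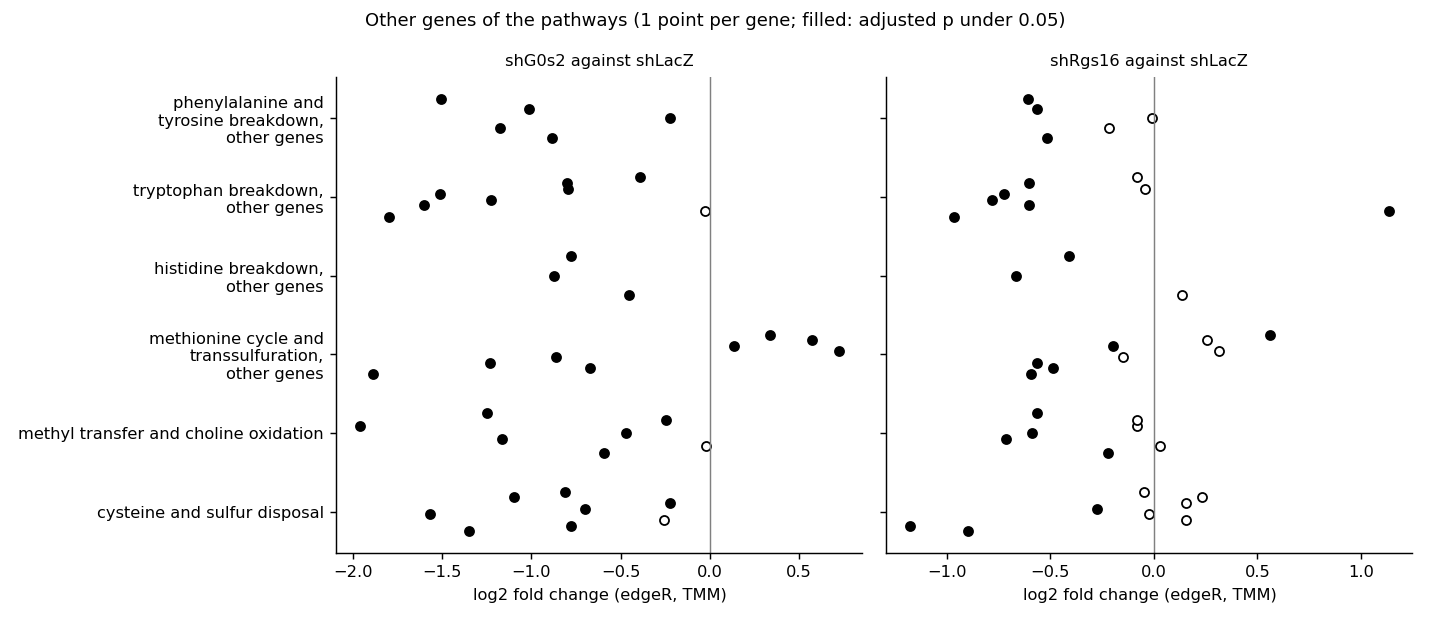
log2 fold change (horizontal axes, edgeR with TMM) of the 39 other pathway genes in 6 lists, shG0s2 against shLacZ on the left and shRgs16 against shLacZ on the right; filled points have an adjusted p under 0.05. Most points lie left of 0, and those called right of it are 4 genes of the methionine cycle list in shG0s2, and Acmsd and Mtr in shRgs16.

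By the GENCODE M21 annotation of GRCm38, the 9 genes are protein-coding and lie on 8 chromosomes. Hpd is at chr5:123171807-123182727 on the minus strand, where it overlaps Psmd9 on the opposite strand, and Psmd9 had at most 11.4% of the count of Hpd in any sample. The strand setting of the counting is not given in the sources used here, so reads of overlapping genes on opposite strands may not be told apart. Cth is at chr3:157894248-157925077 on the minus strand and contains the predicted gene Gm43314, which had at most 2.82% of its count. Tdo2 is at chr3:81957090-81976202 on the minus strand and Hal at chr10:93488768-93519304 on the plus strand. Hgd lies at chr16:37580153-37632020 on the plus strand and Fah at chr7:84585159-84606722 on the minus strand. Gnmt is at chr17:46725664-46729168 on the minus strand, Mat1a at chr14:41105035-41124412 on the plus strand and Bhmt at chr13:93616675-93637961 on the minus strand. Other genes overlapping Hpd, Bhmt, Gnmt and Hgd each had under 1% of the member's count.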

How the data were processed

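Total RNA from 12 mouse liver samples was sequenced after ribosomal depletion, per the labels' protocols. The authors deposited 1 table per knockdown with shLacZ, and the shLacZ values were the same in both (0 differences over 8 columns). Per the file headers, the tables hold estimated counts and TPM per gene and sample, beside the authors' own fold change (a ratio and its log2) and p-values, raw and adjusted. Tools listed in the submitters' processing notes, with no roles, are Bowtie2 2.2.9, fastp 0.19.5, SAMtools 1.9, GATK 3.8 and DESeq2. The sources used here do not give the genome build, annotation, counting program or strand use. Of 55536 gene IDs, 55536 were in GENCODE M21 (primary assembly).

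Estimated counts, 5789 to 6625 of which were not whole numbers in a sample, were rounded. After filterByExpr and TMM scaling, edgeR 4.0.16 in R 4.3.3 gave a robust quasi-likelihood F test, two-sided, with Benjamini-Hochberg adjustment over all genes and a false discovery rate of 0.05. Each knockdown was tested against shLacZ in 8 samples, and shG0s2 against shRgs16 in a model of 12. SE is the log2 fold change divided by the square root of F. Every adjusted p with no other tool named is edgeR's. Alternatives were no filter, library size alone, relative log expression scaling, DESeq2 1.42.0, limma 3.58.1 on log2(TPM + 1), a replicate block, all 12 samples, and each sample left out. Sample titles gave the groups and replicate numbers. In no group did a pair agree within counting noise (chi-square over its degrees of freedom 11.2 to 43.4), and all 12 samples were used.

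The members, lists and motifs were chosen with earlier results of these data known. Besides the members, Tat, Cbs and Ahcy were named, and from each list and comparison with shLacZ the gene with the smallest p and any called gene against the direction of most of the list, and some genes that this covers are not reported here. For each member the gene with the nearest profile was named, leaving out predicted models, mitochondrial genes and pseudogenes (log2 CPM with a prior count of 2).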

Additional observations from a re-analysis of the deposited data

Results flagged for a closer look

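Within groups of 4, the gap of the highest or lowest sample to its neighbour was compared with the range by Dixon's test, in 27 groups in TPM and 27 in CPM. It passed the 95% critical value in 3 groups in TPM and 3 in CPM, and chance alone gives about 1 in 20. In TPM, shLacZ replicate 4 stood above the other controls for Hal (87.5), Gnmt (1454) and Cth (402). In CPM it stood above them for Cth (676). The other 2 were Mat1a in shRgs16 replicate 4, at 4853 CPM, above its group, and Cth in shG0s2 replicate 2, at 163 CPM, below its group. Replicate 4 of shLacZ was also the control farthest from the others on the third principal component of all genes, at −35.0.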

How the results depend on the processing

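Over the 9 members and both targeted genes, 412 of the values under an alternative kept their direction and their side of the threshold. With the direction kept, 15 lost the call and 8 gained it. Another 15 turned direction, and some of these also lost or gained a call. In shG0s2 against shLacZ, 8 members were lower on leaving out any sample and 7 with library size alone or limma on TPM. In shG0s2 against shRgs16, 9 were lower except in limma on TPM (8). In shRgs16 against shLacZ, members called numbered 2 to 5, lower members 2 to 4 and higher members 0 to 1 on leaving out single samples, with 2 called without shRgs16 replicate 2. Members called higher there were 2 with library size alone, 3 in limma on TPM, and 1 with DESeq2, with all 12 samples and without shLacZ replicate 4. Members called lower were 1 with library size alone and 0 in limma on TPM.

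The direction turned in limma on TPM for Hgd (0.16) and Cth (0.058) in shG0s2 livers and for Tdo2 (0.15), Hal (0.15), Mat1a (0.38), Hpd (0.018) and Gnmt (0.084) in shRgs16 livers, and with library size alone for Tdo2 (0.044), Hal (0.13) and Mat1a (0.24) in shRgs16 livers. On leaving out single samples Hgd ranged from −0.073 to 0.15 and Mat1a from −0.19 to 0.082 in shRgs16 livers, never past the threshold. Genes called higher and lower over the whole table were 10067 and 1246 for shG0s2 against shLacZ, 7686 and 1279 for shRgs16 against shLacZ, and 6054 and 1568 for shG0s2 against shRgs16 with library size alone. In limma on TPM the counts were 11588 and 722, 8852 and 753, and 6731 and 1160 in the same order of comparisons. With TMM they were 4875 and 4556, 3770 and 3749, and 3359 and 3281. Both alternatives leave out the TMM factor.

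Over all genes, samples sharing a replicate number deviated together little if at all (r from −0.07 to 0.14). This cannot exclude a pairing that affects some genes, so whether the numbers pair the samples is not settled. With a replicate block 8, 5 and 9 members were called in the 3 comparisons, and the added call in shRgs16 livers was Cth as higher (1.33, adjusted p = 0.00430). Without shLacZ replicate 4, the pathway lists had 7 higher and 20 lower genes in shRgs16 livers. Depth was lowest in shG0s2 replicate 2, where each member still had at least 1677 counts.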
